A study of Mus musculus with 43 samples.

Results

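Mature sperm and the luminal fluid that surrounds them were compared in the cauda, the distal segment of the epididymis in which sperm are stored before ejaculation. All 4 libraries of WT cauda sperm and all 3 libraries of WT cauda fluid were taken, which are 7 of the 43 samples of the series. The groups are FVB mice of 8 to 12 weeks, and both were WT, so no transgene, deletion or treatment is carried by either side. RNA of 3 mice was pooled for each library according to the methods of the study, so a library is a pool and not an animal. Fluid is the luminal content of the duct after sperm, extracellular vesicles and cell debris had been removed. Total RNA from both was treated with T4 polynucleotide kinase (PNK), which removes phosphates from 3′ ends, and was sequenced by OTTR-seq, a small RNA method in which a reverse transcriptase joins adapters by jumping between templates. The sperm and the fluid counts come from separate tables, so the material and the table of origin cannot be told apart. The nearest comparison, 4 libraries of KO cauda sperm with 3 of KO cauda fluid, comes from mice that lack Rnase9, Rnase10, Rnase11 and Rnase12, a cluster of epididymal RNase A family genes.

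As background, transcription ceases in the late spermatid and much of the cytoplasm is shed, so sperm leave the testis with a small and mixed RNA content that is altered during epididymal transit. tRNA fragments (tRFs) are pieces of mature tRNAs, and rRNA-derived small RNAs (rsRNAs) are pieces of rRNAs. 5′ tRFs begin at the 5′ end of the tRNA and 3′ tRFs end at its 3′ end, whereas the third kind, called other tRFs here, reach neither end and so come from the interior. miRNAs guide Argonaute proteins to mRNAs through a seed near their 5′ end, piRNAs guide PIWI proteins in male germ cells, snoRNAs guide the modification of rRNA in the nucleolus, and snRNAs act in the spliceosome.

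Several structured RNAs on which the comparison turns are shown here in full, as the annotated transcript on its own strand (GENCODE release M21, GRCm38). Rny1 (chr6:47788069-47788180, minus strand), a Y RNA bound by the Ro60 protein, and Snord80 (chr1:161037601-161037681, plus strand), a C/D box snoRNA, moved in opposite directions within their classes. In the other 2, capitals mark the stretch that is also annotated as a miRNA, which bears on what the miRNA class holds. For the H/ACA box snoRNA Snora81 (chr16:23110756-23110933, plus strand) it is the stretch shared with Gm49346. For the C/D box snoRNA Snord33 (chr7:45126864-45126947, minus strand) it is the mature sequence of miR-5121.
Rny1: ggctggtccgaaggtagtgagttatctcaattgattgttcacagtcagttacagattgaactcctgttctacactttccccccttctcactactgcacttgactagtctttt
Snord80: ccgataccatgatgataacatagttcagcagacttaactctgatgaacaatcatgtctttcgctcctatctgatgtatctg
Snora81: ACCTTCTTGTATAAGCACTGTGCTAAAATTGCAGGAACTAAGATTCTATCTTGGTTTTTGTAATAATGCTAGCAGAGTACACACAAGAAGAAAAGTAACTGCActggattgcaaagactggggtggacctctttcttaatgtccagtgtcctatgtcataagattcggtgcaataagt
Snord33: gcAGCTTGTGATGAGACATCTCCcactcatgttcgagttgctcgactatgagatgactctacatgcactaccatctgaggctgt

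Mature miRNAs whose genes differed in share are shown with the seed, bases 2 to 8, in capitals (RefSeq, GRCm38.p6). The count tables hold hairpin genes, so which arm was read is not recorded in them. Of the 32 miRNA genes considered for naming, 24 had a mature sequence in the reference used here. The first 5 belong to genes with a higher share of miRNA counts in sperm, and miR-34b-5p and miR-449a-5p have the same seed, GGCAGUG. The rest belong to genes with a higher share in fluid, except miR-141-3p, whose gene did not pass the test and which has the seed of miR-200a-3p, AACACUG.
miR-34b-5p: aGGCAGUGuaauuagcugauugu
miR-449a-5p: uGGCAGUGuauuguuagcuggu
miR-19b-3p: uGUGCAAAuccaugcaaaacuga
miR-16-5p: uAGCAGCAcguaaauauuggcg
miR-93-5p: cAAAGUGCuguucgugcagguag
miR-125b-5p: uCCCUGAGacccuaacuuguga
miR-99a-5p: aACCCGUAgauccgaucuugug
miR-26a-5p: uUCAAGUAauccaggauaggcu
miR-200a-3p: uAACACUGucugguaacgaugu
miR-200c-3p: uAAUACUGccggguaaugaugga
miR-141-3p: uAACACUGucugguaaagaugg
miR-451a: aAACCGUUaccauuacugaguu
miR-223-3p: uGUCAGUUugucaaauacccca

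Library depth differed by far more in sperm than in fluid. Total counts were 52607365, 2899859, 1134840 and 3025269 in WT sperm 1 to 4 and 12320922, 10206828 and 8878655 in WT fluid 1 to 3. Sperm 4 had a correlation of log2 counts of 0.831 with sperm 2 and 0.810 with sperm 3, but of 0.920 with sperm 1, the deepest library. Sperm pairs without sperm 4 were at 0.926 to 0.947, and fluid pairs at 0.966 to 0.977. A read could be counted on several features, and 499 of the 3091 rows listed in both tables had the same counts as another row in all 7 libraries. At least 99.6% of sperm counts and 99.997% of fluid counts lay in those 3091 rows. Nothing in the labels states how the pools were drawn, so the p-values measure the spread between these libraries.

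Counts on annotated RNAs were mostly rRNA in sperm and mostly tRNA in fluid. Reads that matched no annotated feature are outside these counts; the study describes them as a larger part of the reads in sperm than in fluid, so shares of all mapped reads would differ from those given here. tRFs were 8.39%, 4.07%, 7.92% and 1.51% of all counts in sperm 1 to 4 and 77.5%, 84% and 86.5% in fluid 1 to 3. The mean was 5.47% ± 3.27 (SD, n = 4) in sperm and 82.7% ± 4.64 (SD, n = 3) in fluid, so the share was 15.1-fold lower in sperm (8.28-fold without rRNA repeats, at 10.6% and 88.1%). rsRNAs were 82.8%, 92%, 83.6% and 89.7% of sperm counts and 12.7%, 9.63% and 8.82% of fluid counts, 8.37-fold higher in the mean and 16.8-fold without rRNA repeats. The groups did not overlap in either class. Among 20 shares tested by an exact permutation test of log2 shares (2-sided, 35 arrangements), 16 did not overlap between sperm and fluid. Each of those had p = 0.0571 by the exact permutation test, the smallest p that 4 against 3 libraries allow, and 0.0714 after Benjamini-Hochberg adjustment, so no share could pass 0.05 in this design. In the KO libraries 19 of the 20 shares did not overlap. KO sperm had 1.91% to 5.04% tRFs and KO fluid 75.8% to 87.9%.

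The rRNA types did not move together. 28S fragments, from the large cytoplasmic subunit, were 63.5%, 68.2%, 59.9% and 63.0% of sperm counts and 5.14%, 4.66% and 3.47% of fluid counts, a ratio of means of 14.4. 18S fragments, from the small subunit, were 10.7% to 19.3% of sperm counts and 0.597% to 1.08% of fluid counts. 5.8S fragments were 1.28%, 0.995%, 1.09% and 4.74% in sperm and 0.0149%, 0.0159% and 0.00963% in fluid, a ratio of means of 150, with sperm 4 far above the other sperm libraries. Mitochondrial rRNA fragments were 0.379% to 1.16% of sperm counts and 0.00597% to 0.0111% of fluid counts, 80.7 times higher in the mean. Without rRNA repeats the ratios of means were 27.1 for 18S (15.8 with them), 275 for 5.8S and 149 for mitochondrial fragments. Fragments of 5S rRNA, which is transcribed apart from the others by RNA polymerase III, overlapped: 6.95%, 2.65%, 9.28% and 7.88% in sperm against 6.49%, 3.99% and 4.74% in fluid (exact permutation p = 0.629). The plot of class shares by library shows this split among the rRNA types.

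**Figure D1:**
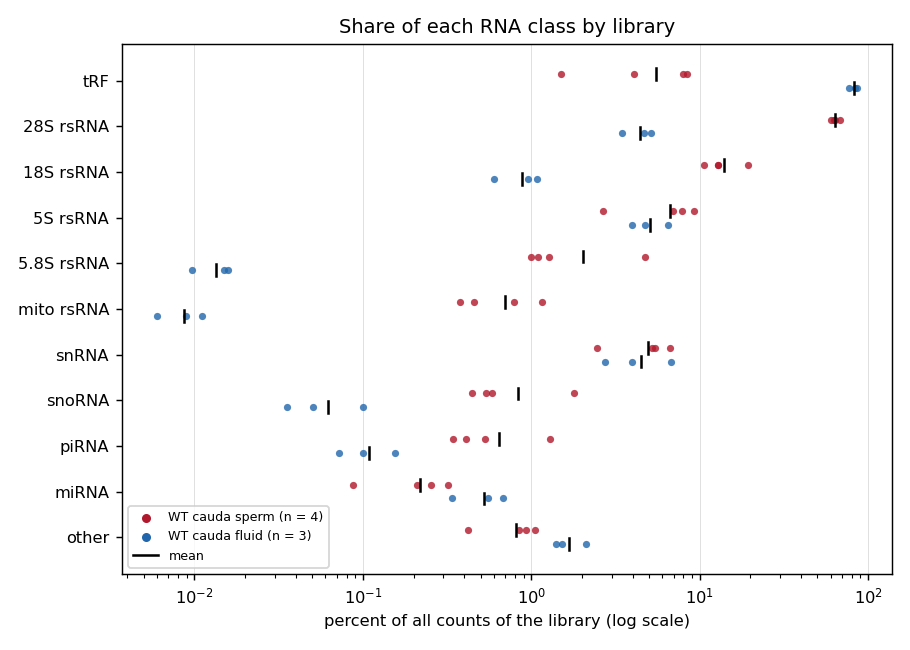
Share of each RNA class as percent of all counts of a library (log axis), with 1 point per library (WT cauda sperm, n = 4, red; WT cauda fluid, n = 3, blue) and a bar at the mean. tRFs lie at 1.51% to 8.39% in sperm and 77.5% to 86.5% in fluid, the 28S, 18S, 5.8S and mitochondrial rsRNAs lie higher in sperm, and the 5S rsRNA and snRNA points overlap.

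Of the smaller classes, snoRNAs and piRNAs took a higher share in sperm and miRNAs a lower one. snoRNAs were 0.584%, 0.442%, 0.537% and 1.79% of sperm counts and 0.0509%, 0.100% and 0.0356% of fluid counts, with sperm 4 the highest. The log2 ratio of snoRNA shares was 3.64, and 3.19 without sperm 4. piRNAs were 0.344%, 0.535%, 1.29% and 0.411% in sperm and 0.0996%, 0.156% and 0.0719% in fluid, a ratio of means of 5.90 (10.9 without rRNA repeats). Mitochondrial tRNA counts were 0.00486% to 0.0244% of sperm counts and at most 0.000176% of fluid counts. miRNA rows were 0.253%, 0.0877%, 0.209% and 0.321% in sperm and 0.679%, 0.551% and 0.337% in fluid, 2.40-fold lower in sperm. The miRNA groups overlapped without rRNA repeats (1.33-fold lower, exact permutation p = 0.457) and with the most counted row of each rRNA type and tRF sum alone (1.54-fold lower, exact permutation p = 0.171). snRNAs overlapped, at 2.47% to 6.63% in sperm and 2.75% to 6.74% in fluid (exact permutation p = 0.8). The class of other RNAs (Y, 7SL, 7SK and similar RNAs) was 0.424% to 1.05% of sperm counts and 1.41% to 2.13% of fluid counts, and overlapped under the same 2 alternatives (exact permutation p = 0.686 and 0.286).

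Sperm tRFs differed from fluid tRFs in the part of the tRNA they came from. Other tRFs, from the tRNA interior, were 48.9%, 53.8%, 49.0% and 58.4% of the tRF counts of sperm 1 to 4 and 4.65%, 5.77% and 1.83% of those of fluid 1 to 3. 5′ tRFs were 27%, 16%, 22.8% and 18.7% of sperm tRFs and 44.5%, 46.7% and 44.4% of fluid tRFs. 3′ tRFs were 24.1%, 30.2%, 28.2% and 22.9% in sperm and 50.9%, 47.5% and 53.7% in fluid. None of the 3 types overlapped between sperm and fluid (exact permutation p = 0.0571 for each), and the means for other tRFs, 52.5% ± 4.52 (SD, n = 4) and 4.08% ± 2.03 (SD, n = 3), differed 12.9-fold. Other tRFs were 52.2% to 53.7% of the tRFs of KO sperm and 3.3% to 7.34% of those of KO fluid. Full-length tRNAs were at most 0.00397% of the counts of any WT sperm library and 0.0331% of any WT fluid library, and were at 0 in sperm 4. The groups overlapped, with sperm 3 above the 0.00233% of fluid 1 (exact permutation p = 0.114 on the share itself).

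**Figure D2:**
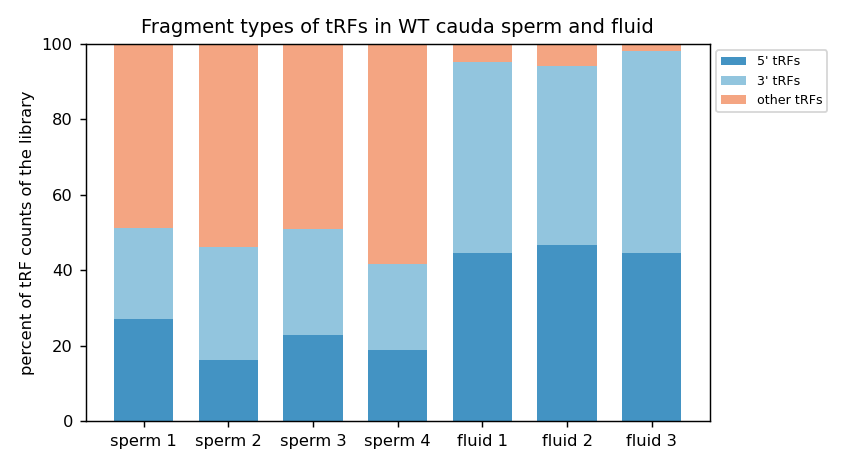
Stacked bars of 5′, 3′ and other tRFs as percent of the tRF counts of each WT cauda library (4 of sperm, 3 of fluid). Other tRFs fill 48.9% to 58.4% of each sperm bar and 1.83% to 5.77% of each fluid bar.

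The shift toward interior fragments ran through nearly every tRNA. Of the 51 anticodons in both tables, 47 had at least 100 tRF counts in every library. Within its own anticodon, the share of other tRFs was higher in every sperm library than in every fluid library for 46 of the 47, the exception being Sup-TCA, a predicted suppressor tRNA whose fragments were nearly all other tRFs in both materials. Other tRFs were the largest type of 26 anticodons in sperm and of 1 in fluid. 3′ tRFs were the largest type of 13 in sperm and of 35 in fluid, and 5′ tRFs of 8 in sperm and of 11 in fluid. The share of 3′ tRFs within the anticodon was higher in all fluid libraries for 39 anticodons and higher in all sperm libraries for 1, the initiator methionine tRNA iMet-CAT. 5′ tRFs divided more evenly, higher in fluid for 12, higher in sperm for 8 and overlapping for 27. Cys-GCA shows the size of the shift: 80.1% ± 7.54 (SD, n = 4) of its tRFs were other tRFs in sperm and 4.99% ± 2.90 (SD, n = 3) in fluid, where 60.5% ± 6.91 were 5′ tRFs.

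To compare composition free of the class totals, each RNA was tested as a share of its class (edgeR quasi-likelihood with the class total of the library as offset, Benjamini-Hochberg adjusted over all classes, called at adjusted p under 0.05 and an absolute log2 ratio above 1). Over all 1525 entries tested, 40.9% were called higher in sperm and 14.4% lower, and the sperm and fluid libraries of 58% did not overlap. The median log2 ratio of all entries was 0.92. tRFs were summed by anticodon and fragment type. Of the other tRF sums, 48 of 50 were called higher and 0 lower (median log2 4.01). Of 49 sums of 3′ tRFs, 5 were higher and 18 lower (median -0.79). Of 48 sums of 5′ tRFs, 14 were higher and 9 lower (median 0.70), a direction that turned to -0.10, with 5 higher and 16 lower, when TMM was applied within each class, and 9 were higher and 10 lower without fluid 1.

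Fluid was led by 5′ fragments of glycine and 3′ fragments of leucine and histidine tRNAs, and each took a smaller part of sperm tRFs. Gly-GCC 5′ tRFs were 22.3%, 19.6% and 19.5% of the tRF counts of fluid 1 to 3 and 9.39%, 3.16%, 6.05% and 3.01% of those of sperm 1 to 4 (log2 -1.92, SE 0.40, edgeR adjusted p = 0.00208). Leu-CAA 3′ tRFs were 9.36%, 8.23% and 12.0% in fluid and 5.19%, 3.38%, 4.01% and 3.21% in sperm (log2 -1.32, SE 0.30, adjusted p = 0.00342). His-GTG 3′ tRFs were 9.36%, 6.58% and 7.50% in fluid and 2.60%, 1.30%, 1.77% and 1.05% in sperm (log2 -2.22, SE 0.36, adjusted p = 0.000552). No library of sperm reached the fluid range for any of the 3. Glu-CTC 5′ tRFs (log2 -1.83), Leu-CAG 3′ tRFs (-1.54), His-GTG 5′ tRFs (-1.41), Val-AAC 3′ tRFs (-2.44) and Trp-CCA 3′ tRFs (-1.36) were called lower as well. With the most counted row of each sum alone, the calls of Leu-CAA 3′ tRFs (log2 -0.58) and His-GTG 5′ tRFs (-0.97) were lost. The Trp-CCA call was lost without fluid 3 (log2 -1.26, adjusted p = 0.0506). The 5′ tRFs of Val-AAC (log2 -0.90, adjusted p = 0.0331) and Val-CAC (log2 -0.66, adjusted p = 0.103) were not called, although for both every fluid library was above every sperm library.

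Fragments from the inside of Cys-GCA led sperm tRFs. They were 15.6%, 10.9%, 12.0% and 12.3% of the tRF counts of sperm 1 to 4 and 0.0840%, 0.149% and 0.0376% of those of fluid 1 to 3, where they ranked 80th in place of first (log2 7.14, SE 0.60, adjusted p = 3.54e-05). As a share of all counts they were 0.723% in the mean of sperm and 0.0742% in the mean of fluid. Gly-GCC other tRFs followed at 8.82%, 8.66%, 7.03% and 8.04% in sperm and 0.656%, 1.17% and 0.0794% in fluid (log2 3.68, SE 0.73, adjusted p = 0.00169). Gly-GCC was thus a leading source in both materials, with a smaller part of 5′ tRFs in sperm: 90.03% ± 2.50 of its tRFs in fluid (SD, n = 3) and 36.7% ± 12.3 in sperm (SD, n = 4) were 5′ tRFs. Within Gly-GCC, sperm libraries had 26.2% to 50.1% 5′ tRFs and 47.0% to 71.7% other tRFs. In sperm 1 its 5′ tRFs stayed slightly above its other tRFs. Other tRFs of Lys-CTT (mean 3.61% against 0.181%), Val-AAC (2.43% against 0.0815%), Val-CAC (2.31% against 0.121%), Trp-CCA (2.11% against 0.183%) and iMet-CAT (2.09% against 0.0601%) were also called higher and did not overlap. Cys-GCA 3′ tRFs were 0.750% to 3.62% in sperm and 0.277% to 0.970% in fluid, which overlap (log2 1.57, adjusted p = 0.0387). That call was lost without sperm 2 (log2 1.17, adjusted p = 0.109), sperm 3 (1.48, 0.0800), fluid 1 (1.19, 0.107) or fluid 3 (1.75, 0.0697).

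Initiator methionine and threonine tRNAs showed the change of fragment type in its clearest form. iMet-CAT 5′ tRFs were 0.220%, 0.364%, 0.268% and 0.101% of sperm tRFs and 0.652%, 2.01% and 2.01% of fluid tRFs (log2 -2.70, adjusted p = 0.00120), while iMet-CAT 3′ tRFs were 0.284%, 1.13%, 0.314% and 0.846% in sperm and 0.00442%, 0.0487% and 0.0299% in fluid (log2 4.54, adjusted p = 0.00166). Within iMet-CAT, 93.5% ± 3.95 of the tRFs of fluid (SD, n = 3) and 8.99% ± 4.59 of those of sperm (SD, n = 4) were 5′ tRFs. Thr-AGT other tRFs were 0.880%, 1.39%, 1.17% and 0.964% in sperm and 0.00342%, 0.00656% and 0.00439% in fluid (log2 7.85, adjusted p = 2.71e-05). Thr-CGT other tRFs had the largest log2 ratio of the tRF sums named here, 8.36, at 0.269% to 0.446% in sperm and 0.000806% to 0.00132% in fluid. In fluid 99.4% ± 0.257 of the tRFs of Thr-AGT (SD, n = 3) were 3′ tRFs. Among rarer sums chosen by their small p, Gly-ACC 5′ tRFs (log2 5.71), SeC-TCA 5′ tRFs of the selenocysteine tRNA (3.79) and Ser-GGA 3′ tRFs (4.06, with 1 to 71 counts in sperm libraries and 15 or 16 in fluid libraries) were higher in sperm, and Val-TAC 3′ tRFs (-2.96) and Glu-TTC 3′ tRFs (-3.96) were lower.

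**Figure D3:**
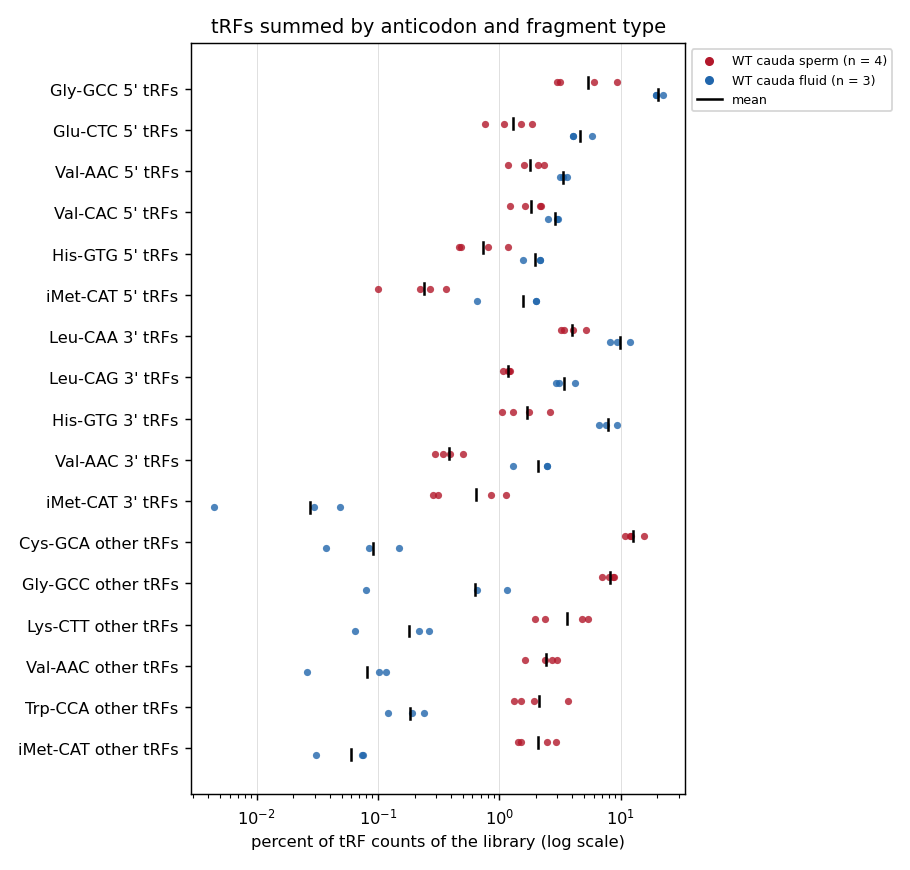
tRFs summed by anticodon and fragment type as percent of the tRF counts of each library (log axis), with 1 point per library (WT cauda sperm, n = 4, red; WT cauda fluid, n = 3, blue) and a bar at the mean. The 5′ tRF rows lie further right in fluid, as do the 3′ tRF rows except iMet-CAT, and the other tRF rows lie further right in sperm.

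Within rsRNAs neither 28S sequence passed the test, while 5.8S and mitochondrial sequences rose and the 5S sequence fell. The first of the 28S sequences was 14.3% to 16.9% of sperm rsRNA counts and 14.6% to 16.7% of those of fluid (log2 -0.02, adjusted p = 0.951), and the second 14.9% to 17.9% and 16.9% to 19.9% (log2 -0.17, adjusted p = 0.562). 18S rRNA was 7.50% to 11.4% in sperm and 4.47% to 6.04% in fluid (log2 0.79, adjusted p = 0.0333), under the fold set for a call, and its log2 ratio was -0.15 with TMM within the class. 5.8S rRNA was 1.55%, 1.09%, 1.31% and 5.30% in sperm and 0.117%, 0.165% and 0.109% in fluid (log2 4.15, SE 0.63, adjusted p = 0.000388). The mitochondrial small subunit rRNA was 0.0789%, 0.224%, 0.122% and 0.373% in sperm and 0.00293%, 0.0103% and 0.00332% in fluid (log2 5.18, adjusted p = 0.000323), and the large subunit rRNA had a log2 ratio of 2.95 (adjusted p = 0.000338). The 5S sequence was 0.142%, 0.0484%, 0.186% and 0.163% in sperm and 0.955%, 0.765% and 1.04% in fluid (log2 -2.77, adjusted p = 0.000737). Over all rsRNA entries, 146 of 325 were called higher and 100 lower (median log2 0.88), a balance that turned to 114 higher and 128 lower (median 0.13) with TMM within the class.

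Copies of rRNA elsewhere in the genome, counted as RepeatMasker repeats, spread more widely than the rRNA sequences. The same 18S copy (log2 0.23, adjusted p = 0.583) and 28S copy (log2 0.33, adjusted p = 0.424) were the most counted repeats in both materials and did not pass, and with TMM within the class their log2 ratios were -0.64 and -0.71. The next in sperm, another 28S copy, was 1.84% to 2.16% of sperm rsRNA counts and 0.0479% to 0.262% of fluid rsRNA counts (log2 3.87, adjusted p = 0.000323). The next in fluid, also a 28S copy, was 1.02% to 1.49% there and 0.123% to 0.337% in sperm (log2 -2.47, adjusted p = 0.000737). A further 28S copy (log2 6.67) and an 18S copy (log2 7.05), taken for their small p, held 9 to 17 and 4 to 7 counts in fluid libraries, and 986 to 49457 and 709 to 17683 in sperm libraries. 5S copies went the other way: the copy with the smallest p was 0.0119% to 0.0457% in sperm and 0.413% to 0.698% in fluid (log2 -4.45), and the next had a log2 ratio of -4.32. A read could be counted on several copies, so these entries are not independent of the rRNA sequences.

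The miRNA class held much that was not miRNA. Rows typed as miRNA but sharing a run of sequence with 7SL RNA (8 rows, Gm47295 among them) took 40.7% to 48.7% of the miRNA counts of sperm and 29.5% to 60.1% of those of fluid. Gm47295 was 13.2%, 16.7%, 15.1% and 16.1% of sperm miRNA counts and 18.8%, 12.1% and 27.4% of fluid miRNA counts, and did not pass the test (log2 -0.35, adjusted p = 0.473). Rows on snoRNAs or scaRNAs (18 rows) took 4.52% to 8.63% in sperm and 0.0538% to 0.0668% in fluid. The remaining rows named Mir (403 rows) took 40.9% to 49.9% in sperm and 38.4% to 69.0% in fluid. Counted alone, these Mir rows were 0.126%, 0.0359%, 0.0966% and 0.143% of all counts in sperm and 0.383%, 0.380% and 0.129% in fluid, which overlap (exact permutation p = 0.114). This class of Mir rows was defined after the data had been seen.

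The miRNA entries with the largest rise in sperm were of the second kind. Mir5121 was 2.59%, 1.89%, 2.47% and 6.19% of sperm miRNA counts and 0.0108%, 0.00712% and 0.0100% of fluid miRNA counts (log2 8.43, adjusted p = 3.74e-05). Its hairpin (chr7:45126918-45126991) overlaps Snord33, whose 5′ end holds all of mature miR-5121 as shown above, and Snord33 itself was higher in sperm (log2 3.82, adjusted p = 0.000326). Gm49346, on Snora81, had 25 to 1372 counts in sperm libraries and 0 to 3 in fluid libraries, and Snora81 had 49 to 2447 and 2 to 10. Gm47309, which lies on the snoRNA-type gene Gm22519, had 939, 13, 14 and 42 counts in sperm and 0 in every fluid library. Its mean share in sperm was 322 times a floor of 3 counts over the 169647 miRNA counts of fluid, pooled over libraries. Pooling leaves out the spread between fluid libraries. At or near 0 in fluid, Gm49346 and Gm47309 could pass the filter only through sperm, so the size of their rise is not separate support. A transcript of the 7SL gene Gm24105 that is typed as a miRNA was 3.33% to 6.97% in sperm and 1.44% to 1.82% in fluid (log2 1.48, adjusted p = 0.0226), a call lost without sperm 4 (1.19, 0.0513), fluid 1 (1.47, 0.0652) or fluid 3 (1.4, 0.0816). n-TStga1, typed as a miRNA and named for a serine tRNA, went the other way, with 33, 1, 0 and 1 counts in sperm and 376, 166 and 162 in fluid (log2 -4.34, adjusted p = 0.000271).

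Among miRNAs proper, the lists differed in how many genes were called, against 68 higher and 38 lower of all 192 miRNA entries. These entries still include the 7SL and snoRNA rows. With the class of Mir rows alone, 54 of 159 entries were higher and 33 lower. The miR-34 and miR-449 family, known from meiotic and haploid germ cells, had 3 of 4 tested genes called higher and 0 lower (median log2 2.01). Mir34c was 0.965%, 0.602%, 0.738% and 0.352% of sperm miRNA counts and 0.0933%, 0.0926% and 0.0635% of fluid miRNA counts (log2 2.99, SE 0.51, adjusted p = 0.000737). Mir34b was 1.03%, 0.963%, 0.868% and 0.477% in sperm and 0.276%, 0.265% and 0.194% in fluid (log2 1.76, SE 0.47, adjusted p = 0.00900), a call lost with TMM within the class (log2 0.88, adjusted p = 0.0866). Mir449a, with the seed of miR-34b-5p, had a log2 ratio of 2.26 (adjusted p = 0.00363). All 3 were higher in every sperm library than in any fluid library. As levels per RNA rather than shares of the class, none of the 3 passed (log2 0.88 for Mir34c, -0.39 for Mir34b and 0.21 for Mir449a). Of 13 tested rows of X-linked clusters known from testis and epididymis, 2 were called higher and 0 lower (median log2 1.07), fewer than in the class as a whole, and 7 were higher without sperm 4. With the class of Mir rows alone, 4 of the 13 were higher. Per RNA 0 of the 13 were called (median -1.05), and 10 were lower with DESeq2 size factors, against 115 of all 192 miRNA rows. Mir471, of these clusters, had a log2 ratio of 2.18 (adjusted p = 0.00812).

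miRNAs of the miR-17/92 clusters and their relatives, which are known from dividing cells, had 7 of 9 tested genes called higher and 0 lower (median log2 1.86). With the class of Mir rows alone, 8 of the 9 were higher. Mir19b-1 was 2.39%, 2.85%, 1.87% and 0.756% of sperm miRNA counts and 0.363%, 0.667% and 0.585% of fluid miRNA counts (log2 1.86, SE 0.57, adjusted p = 0.0177), a call lost without fluid 1 (log2 1.64, adjusted p = 0.0658) and with TMM within the class (1.03, 0.104). Without fluid 1 (median 1.64) or with TMM within the class (median 1.03), 1 of the 9 was called. Per RNA 0 of the 9 were called (median -0.28, and 0.45 with total counts). Mir19b-2 had the same or nearly the same counts as Mir19b-1. Mir93 had a log2 ratio of 2.16 (adjusted p = 0.00689). Mir16-1, a regulator of the cell cycle, was 0.984% to 2.59% in sperm and 0.395% to 0.774% in fluid (log2 1.6, adjusted p = 0.0241), a call lost without sperm 1 (1.34, 0.0663), fluid 1 (1.6, 0.0647) or fluid 3 (1.38, 0.0864). Mir19b-1, Mir93 and Mir16-1 did not overlap between sperm and fluid, while Mir19a (log2 2.17) and Mir18 (log2 1.98) were called but overlapped. The Mir19a call was lost without fluid 1 (1.89, 0.0583). The Mir18 call was lost without sperm 2 (1.45, 0.0826), sperm 3 (1.81, 0.0599), fluid 1 (1.78, 0.101), fluid 2 (2.11, 0.0584) or fluid 3 (2.11, 0.0649).

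In fluid the smooth muscle pair stood out. Scaled to the library total, its summed levels were 284, 278 and 97.6 CPM in fluid 1 to 3 and 15.4, 4.83, 7.05 and 16.9 CPM in sperm 1 to 4. They rest on 3493, 2834 and 867 counts in fluid and 810, 14, 8 and 51 in sperm, in libraries of unlike depth. Mir145a was 2.06%, 1.88% and 1.52% of fluid miRNA counts and 0.210%, 0.201%, 0.130% and 0.176% of sperm miRNA counts (log2 -3.31, SE 0.48, adjusted p = 0.000311). Mir143 was 2.12%, 3.16% and 1.38% in fluid and 0.402%, 0.361%, 0.217% and 0.352% in sperm (log2 -2.71, SE 0.50, adjusted p = 0.00115). Of 7 tested genes of the miR-10, miR-99/100 and miR-125 family, which are abundant in epididymis, 4 were called lower and 0 higher (1 lower without fluid 1), among them Mir99a (log2 -2.12, adjusted p = 0.00699) and Mir125b-1 (log2 -1.68, adjusted p = 0.0151), whose call was lost without fluid 1 (-1.47, 0.0546). Of the 5 epithelial miR-200 and miR-141 genes, Mir200a (log2 -1.89, adjusted p = 0.0116) and Mir200c (log2 -2.10, adjusted p = 0.00819) were called lower. The Mir200a call was lost with the replicate block. Mir141, with the seed of miR-200a-3p, had a log2 ratio of 1.25 and did not pass (adjusted p = 0.0964). Mir141 was called higher without sperm 4 (1.55, 0.0466) or fluid 2 (1.92, 0.0287). It was also called higher with the replicate block (1.85, 0.0284) and with the class of Mir rows alone (1.52, 0.0467). Of 5 blood cell miRNAs, 2 were called lower: Mir451a of erythroid cells (log2 -1.80, adjusted p = 0.0104) and Mir223 of myeloid cells (log2 -2.85, adjusted p = 0.00277). On the same list Mir144 (log2 1.19, adjusted p = 0.199) and Mir142 (log2 0.35, adjusted p = 0.648; -0.37 with TMM within the class) did not pass. The median log2 ratio of all 192 miRNA entries was 0.67 and turned to -0.17, with 40 higher and 59 lower, with TMM within the class. Without sperm 1, 30 of 135 were higher and 25 lower, and without fluid 1, 43 of 177 and 21.

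Few let-7 and miR-30 genes were called as shares of the class. Of 11 let-7 genes 1 was called lower and 0 higher (median log2 -0.33), and of 6 miR-30 genes 1 was lower and 0 higher (median 0.56, and -0.24 with TMM within the class, where 5 let-7 genes were lower). With the class of Mir rows alone, 0 let-7 genes were called, and of the miR-30 genes 2 were higher and 1 lower. Per RNA, 8 of the 11 let-7 genes (median -2.11) and 2 of the 6 miR-30 genes (median -1.21) were called lower, and with DESeq2 size factors all 6 miR-30 genes were. Over the 192 miRNA rows tested per RNA, 78 were lower and 17 higher (median -1.24), and 115 were lower with DESeq2 size factors. The let-7 call, Mirlet7d, had 1 to 125 counts in sperm libraries (log2 -1.4, adjusted p = 0.0390) and was lost without sperm 1 (-1.42, 0.0917), sperm 2 (-1.26, 0.0874), sperm 3 (-1.39, 0.0699), fluid 1 (-1.25, 0.108) or fluid 2 (-1.13, 0.116). It was also lost without the filter, with the replicate block and with the class of Mir rows alone. The miR-30 call, Mir30d (log2 -1.42, adjusted p = 0.0332), was lost without sperm 2 (-1.30, 0.0722), sperm 3 (-1.32, 0.0666), sperm 4 (-1.44, 0.0611), fluid 1 (-1.32, 0.0889) or fluid 2 (-1.15, 0.103). Mirlet7c-1 (log2 -1.33, adjusted p = 0.0961) and Mir30c-1 (log2 0.99, adjusted p = 0.0977) did not pass. Mirlet7c-1 was called lower with TMM within the class (-2.18, 0.0141) and without sperm 4 (-1.78, 0.0466). Mir30c-1 was called higher with the class of Mir rows alone (1.23, 0.0370). Mir26a-2 was 1.85%, 2.41% and 1.31% in fluid and 0.804%, 0.361%, 0.825% and 0.777% in sperm (log2 -1.41, adjusted p = 0.0296), a call lost without sperm 1 (-1.50, 0.0546), fluid 1 (-1.42, 0.0627) or fluid 2 (-1.18, 0.0794).

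**Figure D4:**
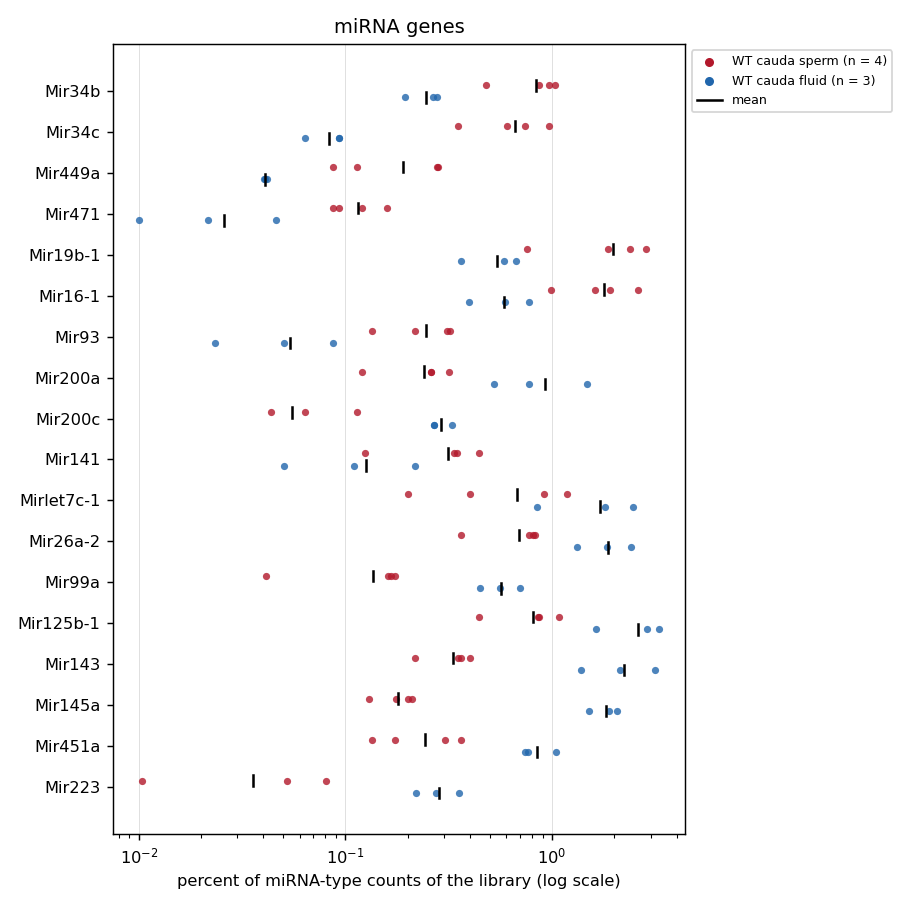
miRNA genes as percent of the miRNA-type counts of each library (log axis), with 1 point per library (WT cauda sperm, n = 4, red; WT cauda fluid, n = 3, blue) and a bar at the mean; libraries at 0 have no point. The germ cell and miR-17/92 genes lie further right in sperm, and Mir143, Mir145a, Mir451a and Mir223 further right in fluid.

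As a check of the labels, the summed levels of marker miRNAs were compared. The 8 germ cell markers, among them Mir34c and Mir471, summed to 69.8, 19.0, 42.3 and 35 CPM (counts scaled to the library total) in sperm 1 to 4 and 36.1, 31.2 and 13.1 in fluid 1 to 3, which overlap. The 6 epididymal epithelium markers summed to 5.52 to 33.4 CPM in sperm and 51.8 to 153 CPM in fluid, the 2 smooth muscle markers to 4.83 to 16.9 and 97.6 to 284, and the 6 blood markers to 9.69 to 20.1 and 52.8 to 93.3. All 22 markers were listed in both tables, and none was at 0 in every library of either material. The part of RNA from these cell types in the differences above was not tested. Fluid had been cleared of sperm, extracellular vesicles and cell debris, so its marker levels do not measure cells. Where the marker RNA came from cannot be told from these counts.

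Sperm held a wider set of snoRNAs than fluid, at higher levels. The sperm table listed 565 snoRNA rows and the table of fluid listed 185, all of them also among those of sperm. Rows outside the tRNA set had reached at least 5 counts in some library of their table, so that a row not listed stayed under 5 counts in every fluid library. Thinned to the depth of the smallest library, 1134840 counts, sperm libraries were expected to show 173 to 180 of the 185 shared rows and fluid libraries 52.9 to 80.1. In the test per RNA on TMM-scaled counts, where 44% of 2015 RNAs were called higher in sperm and 28.4% lower, 162 of 170 snoRNAs were higher and 0 lower (median log2 5.71). That scaling puts the median of all RNAs at 1.03, and under DESeq2 size factors, with that median at 0.29, 146 of the 170 were higher and 0 lower.

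The same guides made up a larger part of the snoRNA class. Of 59 C/D box snoRNAs, which guide ribose methylation, 48 were called higher as a share of the class and 0 lower (median log2 2.96), against 109 higher and 15 lower of all 177 snoRNA entries (median 2.42). With TMM within the class, 30 of the 59 and 59 of the 177 were higher, and 0 and 27 lower. The C/D box snoRNAs summed to 29.8% to 50.5% of snoRNA counts in sperm and 5.91% to 9.35% in fluid. Snord80 was 2.72%, 2.76%, 3.07% and 2.65% of the class in sperm and 0.141%, 0.0389% and 0.157% in fluid (log2 4.73, SE 0.63, adjusted p = 0.000225). Snord104 was 2.17%, 0.723%, 3.14% and 7.97% in sperm and 0.753%, 0.282% and 0.313% in fluid, which overlap (log2 2.96, adjusted p = 0.00926), and its call was lost with TMM within the class (1.81, 0.0630). Of 27 H/ACA box snoRNAs and scaRNAs, which guide pseudouridylation, 19 were called higher and 1, Scarna10, lower (log2 -2.10, adjusted p = 0.00660), and with TMM within the class 6 were higher and 2 lower. The snoRNA-type gene Gm23017 was higher (log2 4.92, adjusted p = 0.000223) and Gm25203 lower (log2 -2.26, adjusted p = 0.00195). U3, the snoRNA of early rRNA processing, led the class in fluid. Of 11 tested rows of snoRNA type with a U name, 8 were called lower and 0 higher, and these 8 are rows of 4 U3 genes with the same or nearly the same counts. Rnu3b1 was 6.62%, 6.09% and 6.61% there and 2.52%, 3.36%, 2.45% and 2.11% in sperm (log2 -1.30, adjusted p = 0.0218), a call lost without sperm 1 (-1.29, 0.0567), fluid 1 (-1.28, 0.0528) or fluid 3 (-1.28, 0.0621).

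Y RNA and 7SL RNA led the class of other RNAs in fluid, and 7SK took a larger part of it in sperm. Rny1 was 21.6%, 26.1% and 25.2% of that class in fluid and 7.83%, 3.78%, 6.38% and 4.43% in sperm (log2 -2.12, SE 0.37, adjusted p = 0.000851). Its level per RNA was also lower in sperm (log2 -3.91, adjusted p = 8.5e-05), with a mean of 0.404% of all fluid counts and 0.0472% of all sperm counts. KO fluid held more of it, 32.9% to 38.8% of the class, and KO sperm 5.07% to 8.83%. Rny3 varied from 0.474% to 4.82% among fluid libraries and overlapped with sperm (log2 -0.71, adjusted p = 0.369; log2 0.50 without fluid 2). Rn7s1, a 7SL RNA, was 24.5%, 17% and 23.3% in fluid and 12.0%, 9.74%, 10.8% and 11.1% in sperm, under the fold set for a call (log2 -0.98, adjusted p = 0.0263). It was called lower with TMM within the class (-4.77), without sperm 1 (-1.03) and without fluid 2 (-1.13).

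7SK, which regulates transcription elongation, and the smaller particle RNAs were a larger part of the class in sperm as long as the class total was the scale. Rn7sk was 6.96%, 7.90%, 6.18% and 7.66% in sperm and 0.315%, 1.78% and 0.393% in fluid (log2 3.11, SE 0.66, adjusted p = 0.00240). Its level per RNA was higher too (log2 1.69, edgeR adjusted p = 0.028), on TMM-scaled counts that put the median of all RNAs at 1.03. On that scale 54 of 101 RNAs of the class were higher and 6 lower (median 1.86), against 18 and 12 with DESeq2 size factors. Vaultrc5 of the vault particle had a log2 ratio of 2.90 (adjusted p = 0.00103) and Rmrp, of RNase MRP, 2.04 (adjusted p = 0.00661). Rpph1, of RNase P, had a log2 ratio of 1.42 (adjusted p = 0.0230) and lost its call without sperm 1 (1.34, 0.0540) or fluid 3 (1.24, 0.0823). The 7SL gene Rn7s6 had 1.07 (adjusted p = 0.0383) and lost its call without sperm 1, 3 or 4 or fluid 1 or 3 (log2 0.94 to 1.08, adjusted p 0.0569 to 0.133). TMM within the class removed the call of Rn7sk (log2 0.16, adjusted p = 0.742) and turned the direction of Vaultrc5 (-0.48), Rmrp (-1.52), Rpph1 (-2.32) and Rn7s6 (-2.43). Over the class, 85 of 101 entries were called higher and 3 lower with the class total as scale, and 12 higher and 24 lower with TMM.

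Spliceosomal snRNAs overlapped in their share of all counts and differed in both directions within the class. Of 9 tested U RNA rows of snRNA type, 1 was called higher and 1 lower as shares of the class (median log2 -0.50). Of all 182 snRNA entries, 76 were called higher and 30 lower (median log2 0.61). The 9 U RNA rows together were 9.74% to 10.6% of snRNA counts in sperm and 11.2% to 12.5% in fluid. Rnu1a1 of the U1 particle led fluid at 4.37%, 3.93% and 4.17%, against 2.52%, 2.08%, 2.49% and 2.03% in sperm, under the fold set for a call (log2 -0.87, adjusted p = 0.0425). Rnu2-10 of U2, the most counted in sperm, was 2.71% to 4.39% there and 1.42% to 2.63% in fluid (log2 0.61, adjusted p = 0.203). Rnu5g of U5 was the U RNA called higher (log2 1.87, adjusted p = 0.0225), although its libraries overlapped and the call was lost without fluid 3 (1.62, 0.0869). Rnu7, of the U7 particle that processes histone mRNA, was lower (log2 -2.21, adjusted p = 0.0157) on 1 to 98 counts in sperm and 61 to 96 in fluid, and that call was lost without sperm 1 (-1.94, 0.0568) or fluid 3 (-1.86, 0.0589). By their small p, the snRNA-type genes Gm22956 (log2 7.60) and Gm23054 (log2 5.82) were higher in sperm, with 0 to 5 counts in fluid libraries, and Gm23485 (log2 -2.16) was lower.

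**Figure D5:**
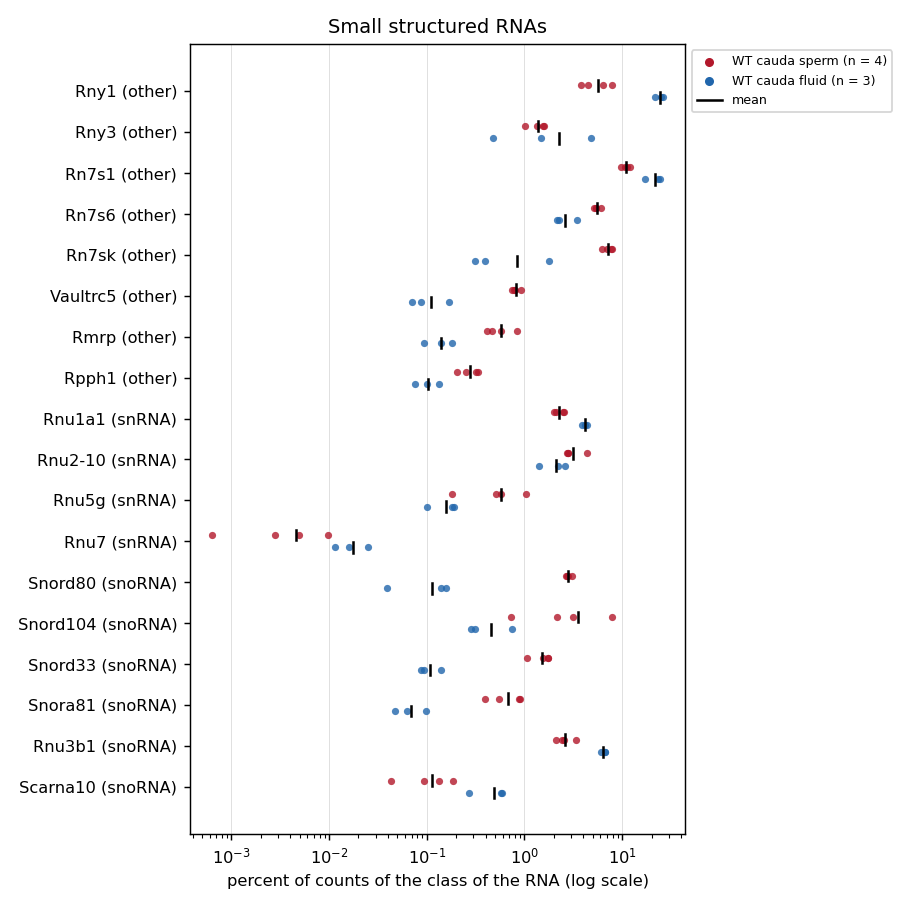
Small structured RNAs as percent of the counts of their class (log axis; class in brackets), with 1 point per library (WT cauda sperm, n = 4, red; WT cauda fluid, n = 3, blue) and a bar at the mean. Rny1, Rn7s1, Rnu1a1, Rnu3b1 and Scarna10 lie further right in fluid, and Rn7sk, Vaultrc5, Snord80, Snord33 and Snora81 further right in sperm on this scale, where TMM within the class turns Vaultrc5 to a log2 ratio of -0.48.

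piRNAs were higher in sperm as a class, while entries of the Ctdsp2 locus led those of fluid. Per RNA, 297 of 401 piRNA entries were called higher in sperm and 3 lower (median log2 2.22); as shares of the class 72 were higher and 6 lower (median 0.61). Per RNA, 74.1% were thus higher, against 36.2% without fluid 1 or without fluid 3, 50.8% without sperm 2 and 48.4% with DESeq2 size factors. As shares, 26 were higher without fluid 1, 33 without fluid 2, 35 without fluid 3 and 40 without sperm 2, and TMM within the class gave 31 higher and 37 lower. pi-Ctdsp2.1 was 12.9%, 8.87% and 6.55% of fluid piRNA counts and 0.914%, 0.240%, 0.240% and 0.895% of sperm piRNA counts (log2 -4.04, SE 0.66, adjusted p = 0.000581), and pi-Ctdsp2.2 had a log2 ratio of -4.26. Ctdsp2 is the host gene of Mir26a-2 (chr10:126995530-126995613), and the counts of pi-Ctdsp2.1, 1589, 1410 and 418 in fluid 1 to 3 and 1648, 37, 35 and 111 in sperm 1 to 4, stood beside Mir26a-2 counts of 1548, 1355 and 393 and of 1063, 9, 19 and 75. Whether the same reads were counted on both was not tested.

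Other leading piRNAs differed in how evenly the sperm libraries held them. pi-Lpp.1 was even, at 2.48%, 2.92%, 2.42% and 2.92% in sperm and 0.880%, 1.07% and 0.987% in fluid (log2 1.46, adjusted p = 0.0160), and its call was lost without fluid 1 (1.38, 0.0560) or fluid 3 (1.46, 0.0566). pi-Hmbox1.1, whose counts equal those of pi-Hmbox1.2, was 0.643%, 1.74%, 17.1% and 0.556% in sperm and 0.277%, 0.390% and 0.830% in fluid (log2 3.34, SE 1.19, adjusted p = 0.0325). It overlapped, and its call was lost without sperm 3 (0.99, 0.221), fluid 1 (3.05, 0.0935), fluid 2 (3.19, 0.0843) or fluid 3 (3.90, 0.0525). pi-Rab11fip4.2 ranged from 0.322% to 5.76% in sperm, highest in sperm 4, and from 0.110% to 0.163% in fluid (log2 3.94, adjusted p = 0.00747).

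Per RNA, the tRF rows showed both the fall of the class and the difference among its types. On TMM-scaled counts 156 of 176 rows of 5′ tRFs and 146 of 179 rows of 3′ tRFs were lower in sperm, with 2 and 4 higher. Rows of other tRFs divided, with 59 of 193 higher and 50 lower (median log2 0.28), a median that turned to -0.43, with 38 higher and 65 lower, under DESeq2 size factors. Without fluid 1, 19 were higher and 46 lower, without fluid 3, 32 and 54, and without sperm 2, 36 and 57. All 11 full-length tRNA rows tested, of 215 listed in both tables, were lower. Full-length tRNAs had so few counts in sperm that rows could hardly pass the filter except through fluid. Their common direction is thus not separate support. Of 318 rRNA repeats, 205 were higher. Over all RNAs, 887 were called higher and 572 lower, which makes 60.8% of the calls higher; this was 49.1% with DESeq2 size factors (665 and 689) and 69.6% with total counts (1003 and 438).

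The KO libraries gave the same order of sperm and fluid. In a fit of all 14 libraries, 964 RNAs were called higher and 687 lower in WT sperm, and 752 and 714 in KO sperm. Of these, 1305 were called in the same direction in both genotypes, which is 79% of the WT calls and 89% of the KO calls, and 3 in opposite directions. The difference between the genotypes was itself tested as an interaction, and 0% of 2235 RNAs passed by edgeR at an adjusted p under 0.05 (310 at an unadjusted p under 0.05), while DESeq2 called 41. For the leading tRFs, Cys-GCA other tRFs were 9.62% to 15.3% of KO sperm tRFs and 0.106% to 0.392% of KO fluid tRFs, and Gly-GCC 5′ tRFs 3.23% to 5.55% and 16.3% to 21.5%. iMet-CAT 5′ tRFs were 0.0207% to 0.0549% of KO sperm tRFs, against 0.101% to 0.364% in WT sperm, and 0.887% to 2.31% of KO fluid tRFs. The ranges of iMet-CAT 5′ tRFs in WT and KO sperm did not overlap, and that difference was not tested as a share.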

How the data were processed

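Raw read counts per RNA, as whole numbers, were deposited by the authors in separate tables for sperm and for epididymal fluid. Per the study's methods, reads were trimmed with cutadapt, short reads were dropped, and the rest were aligned to mm10 with bowtie2 in a modified tRAX pipeline that keeps all best matches, drops other matches of reads that fit tRNAs and then rRNAs best, and counts tRNA reads specific to an anticodon; the labels also name UMI-tools. tRNA reads were sorted into full-length tRNAs and 5′, 3′ and other tRFs. PNK treatment and gel size selection bound what could be read.

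Here the tables were joined on row name (3091 rows). edgeR 4.0.16 quasi-likelihood tests (R 4.3.3) used TMM scaling per RNA, or class totals as offsets within classes, on rows kept by edgeR's expression filter (minimum count 10, total 15). An RNA was called where the adjusted p was below 0.05 and the log2 ratio beyond 1 in size. Class shares used exact permutation tests (scipy 1.17.1). DESeq2 1.42.0, other scalings, no filter, a replicate block, the single most counted entries and leaving out each library were the alternatives, and both main fits were tested on simulated data. Rows were matched to GENCODE M21 names for 1961 of 1967 Ensembl-type rows. CPM and the percentages were computed here from the deposited counts, whereas the study took class percentages from 1 primary match per read.

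The RNAs named are the most counted of each class and material, the leading tRF sums, those with the smallest p, members of fixed lists and all rRNA sequences. Mir16-1, Mir26a-2, Mir5121 and pi-Rab11fip4.2 were chosen after their values were seen. The members, lists and naming rules were chosen with earlier results of these data known. The libraries were compared as counted, and none was dropped. No pair of replicates was close to sampling noise.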

Additional observations from a re-analysis of the deposited data

Results flagged for a closer look

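In 12 of 122 groups of 4 sperm libraries 1 library lay far from the other 3 by Dixon's test, of which chance flags about 1 in 20 groups, and the groups of fluid, with 3 libraries, were not tested. Sperm 4 was the library in 6 of these and the highest in 5: 5.8S rsRNA was 4.74% of all its counts, 5.8S rRNA 5.30% of its rsRNA counts, snoRNA 1.79% of all its counts, Mir5121 6.19% of its miRNA counts and Rnu2-10 4.39% of its snRNA counts. Mir99a was lowest in it, at 0.0414% of miRNA counts. Sperm 3 was highest in tRNA antisense counts (0.122% of all counts), pi-Hmbox1.1 (17.1% of piRNA counts) and Ser-GGA 3′ tRFs (0.00890% of tRF counts). Sperm 2 was lowest in Mir26a-2 (0.361% of miRNA counts) and Mir30c-1 (0.883%) and highest in Mir144 (0.441%). The cause was not tested.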

How the results depend on the processing

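Of 207 values of 19 shares under the alternatives (full-length tRNAs, at 0 in sperm 4, have no log2 ratio), 200 kept their direction. The exceptions were the tRNA antisense share, whose log2 ratio of -0.66 turned to 0.275 with the most counted rows alone, 0.217 without rRNA repeats, 1.65 as a ratio of mean shares, 0.187 without sperm 1 and 0.0967 without sperm 4 (range -2.13 to 0.187 over the libraries left out), and the snRNA share, whose log2 ratio of 0.15 turned to -0.0207 without sperm 1 and -0.152 without fluid 3 and ranged from -0.152 to 0.495 when each library was left out (1.03 without rRNA repeats). RNAs called higher per RNA fell from 887 to 460 when each rRNA type and tRNA sum was represented by its most counted row alone, which tests fewer RNAs, and entries with a lower share of their class from 219 to 120. TMM within each class gave 372 entries higher and 377 lower in place of 623 and 219, and DESeq2 called 41 RNAs for the difference between genotypes in place of 0; the cause was not tested. Of 1308 values of the 102 named RNAs, 1202 kept their side of the threshold, 76 lost it, 19 gained it and 11 changed sign: Rmrp (-1.52), Rn7s6 (-2.43), Rpph1 (-2.32), Vaultrc5 (-0.48), Mir142 (-0.37), 18S rRNA (-0.15) and the most counted 18S (-0.64) and 28S (-0.71) repeats with TMM within each class, Rny3 (0.50) without fluid 2 (range -1.19 to 0.50 over the libraries left out), and the first 28S sequence (0.02 without sperm 2, 0.0290 without fluid 2, range -0.0647 to 0.0290). Whether replicate numbers pair sperm with fluid could not be decided. Correlations of deviations were 0.0478, 0.174 and 0.185 for pairs of the same number. They ran from -0.286 to 0.292 for pairs of different numbers. With the replicate block 910 RNAs were higher and 598 lower, and 579 and 162 entries as shares of their class. The block removed 7 share calls of named RNAs: Mir200a, Mir26a-2, Mir30d, Mirlet7d, Rnu3b1, Rn7s6 and the miRNA-typed transcript of Gm24105. Depth limits some miRNA values: Mir223 had 0 to 2 counts in sperm 2 to 4.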

Other observations

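Among RNAs chosen after their values were seen, mitochondrial tRNAs were 0.00486% to 0.0244% of sperm counts and 1.62e-05% to 0.000176% of fluid counts, a log2 ratio of 7.43, and 6.47 over the rows listed in both tables, beside the 6.24 of mitochondrial rRNA fragments. The fluid table listed 16 of the 43 mitochondrial tRNA rows of the sperm table. Counts on tRNA genes beyond the mature tRNA, named tRNA locus in the tables, went the other way, at 0.00490% to 0.0129% in sperm and 0.0385% to 0.0634% in fluid. Of 58 such rows tested per RNA by edgeR, 54 were called lower and 0 higher, against 28.4% and 44% of all 2015 RNAs. The 58 are those of 192 rows listed in both tables that passed the filter. Rows with few counts in sperm could pass through fluid alone, so this count is not separate support for the share. The within-class order of mean shares was closest between sperm and fluid for 5′ tRFs (Spearman's rho 0.88 over 48 sums, 8 of the 10 leading sums shared) and furthest for miRNAs (0.41 over 192 entries, 2 of 10 shared). These correlations are across RNAs of the same libraries, many of which share reads, and describe them only.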
